A study of Mus musculus with 165 samples.

Results

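Genes that mark the precursors of oligodendrocytes, and the short stage between precursor and myelin-forming cell, were followed through the ageing mouse brain. They were 9 genes, found by matching the symbols Pdgfra, Cspg4, Gpr17, Bmp4, Enpp6, Neu4, Itpr2, Olig1 and Olig2 to the Ensembl ids of the brain count table, which lists 55471 genes. Each symbol had 1 row, and the 9 genes were among the 18711 with enough reads to be tested. The brains came from male mice of the inbred strain C57BL/6J/Ukj aged 3 months (n = 15), 9 months (n = 16), 15 months (n = 16), 24 months (n = 17) or 28 months (n = 18), with no treatment or altered gene named in the labels other than keeping the animals for ageing. Livers of the same series (n = 16, 16, 16, 17 and 18 at those ages) gave the levels of the 9 genes outside the nervous system. RNA with a polyA tail was sequenced in 3 library preparations, called preps here, and each prep held every age. The labels number the mice within each age and do not say which part of the brain was taken.

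Oligodendrocytes wrap the axons of the brain and spinal cord in myelin. They arise, in the adult as in the young, from dividing precursor cells that carry the growth factor receptor Pdgfra and the proteoglycan NG2, the product of Cspg4. A precursor that starts to differentiate loses those markers and passes through a committed, premyelinating stage, in which Gpr17, Bmp4, Enpp6, Neu4 and Itpr2 are high, before myelin genes such as Mbp rise. Gpr17 is a G protein-coupled receptor that is switched on in this stage and off again in the mature cell, and fewer new oligodendrocytes are known to form as rodents age. The transcription factors Olig1 and Olig2 are made through the whole lineage. Several of the 9 genes are also used by other cells: Pdgfra by fibroblasts, Cspg4 by the pericytes of blood vessels, and Itpr2 by astrocytes and many tissues.

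The brain libraries held 11.5 to 73.4 megareads (M reads) counted on genes, with a median of 37.6 M reads, and the lowest count of any of the 9 genes in any brain library was 20, that of Enpp6. The neuronal gene Snap25 was at 734 to 2790 RPM (counted reads scaled to the library total) in the brain and at most 48.1 in the liver, and the liver gene Alb was at 16700 or more in the liver and at most 18.8 in the brain. The libraries of 28 months replicate 15 and 24 months replicate 13 stood apart from the rest: the median rank correlation of their genes with the other brain libraries was 0.8658 and 0.9532, against a median of 0.9928. The first was also the shallowest brain library. It was the lowest or highest library of its age for 6 of the 9 genes (Gpr17, Bmp4, Enpp6, Itpr2, Pdgfra and Cspg4), whose changes from 3 to 28 months are also given without both libraries. In bulk tissue a lower value can mean fewer cells of a type or less RNA per cell, and these cannot be told apart here.

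Over the life span Gpr17 lost 67.5% of its level, Neu4 lost 23.7% and Bmp4 lost 30.3%, Itpr2 rose by 9.69%, and the other 5 genes did not pass the test between 3 and 28 months. Of the 9 genes, 3 fell and 1 rose at an adjusted p under 0.05, while 28.3% of all 18711 genes passed in either direction and 12.0% passed downward. The median log2 fold change of the 9 was -0.08, against 0.01 over all genes tested. The 3 genes that fell were all of the committed stage, of which Itpr2 rose and Enpp6 did not pass. The 2 genes of the dividing precursor and the 2 lineage factors did not pass either. Wider lists did not part by stage: 4 of 15 further precursor genes and 4 of 11 further committed-stage genes fell. Each of these lists had a median log2 fold change of -0.12.

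**Figure D1:**
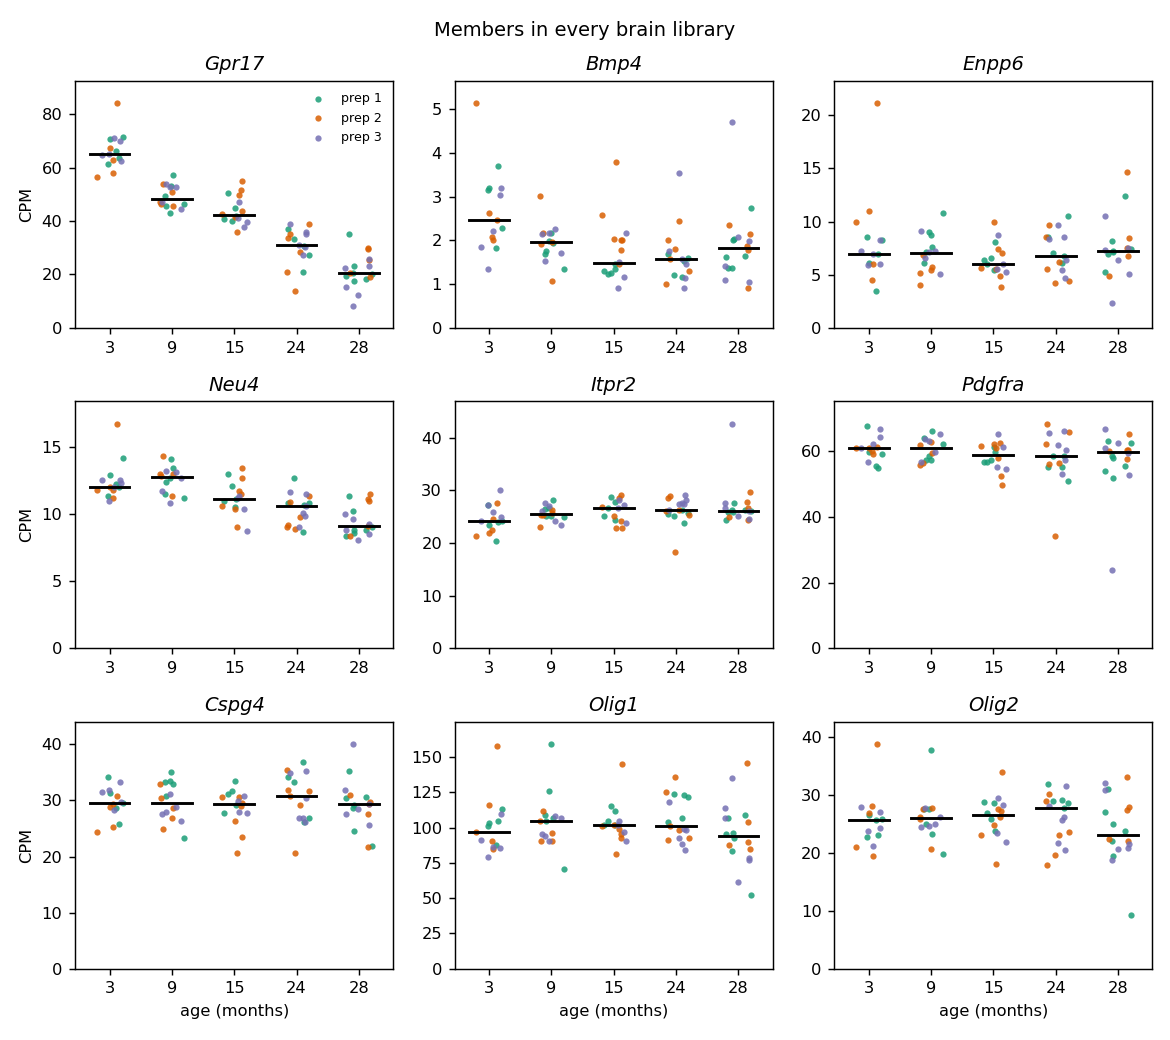
Normalised level (CPM, linear axis from 0) of each of the 9 genes in every brain library at 3, 9, 15, 24 and 28 months, with 1 point per mouse coloured by prep and a bar at the median of each age. The median of Gpr17 is lower at each age, from 65.2 CPM to 20.4 CPM, that of Neu4 is lower at each age after 9 months, and the points of Pdgfra, Cspg4, Olig1 and Olig2 overlap at all ages.

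The plot of every library shows how differently genes of one lineage behaved. Levels are in CPM, each library's counts divided by its total count in M reads, after scaling by the trimmed mean of M values, a factor per library that removes the effect of a few very abundant genes, and fold changes are on the log2 scale with their standard error (SE), from edgeR's quasi-likelihood test with prep as a term and Benjamini-Hochberg adjustment over all 18711 genes.

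Pdgfra (chromosome 5, 75152292 to 75198215 on the plus strand of GRCm38) encodes the receptor through which platelet-derived growth factor keeps precursors dividing. Its lowest, median and highest levels were 54.7, 60.8 and 67.5 CPM at 3 months, and 23.8, 59.7 and 66.6 CPM at 28 months. The ages overlapped almost fully, and 4 of 18 mice of 28 months were below the lowest mouse of 3 months. The lowest value of all, 23.8 CPM, and the next, 34.2 CPM, were those of the 2 libraries that stood apart. The log2 fold change from 3 to 28 months was -0.08 ± 0.06 (SE), with an adjusted p of 0.367, and -0.03 without those 2 libraries. At 15 and 24 months the changes against 3 months were -0.05 ± 0.06 and -0.07 ± 0.06, and the test of all ages together gave an adjusted p of 0.778.

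Cspg4 (chromosome 9, 56865033 to 56899870, plus strand) encodes the NG2 proteoglycan on the surface of the same cells. It ran from 24.3 through 29.5 to 34.2 CPM (lowest, median and highest) at 3 months and from 21.7 through 29.3 to 40.0 CPM at 28 months. Only 2 of the 18 oldest mice were below the range of the youngest and 2 were above it, and the change was -0.03 ± 0.06 (adjusted p 0.743). The highest value of 28 months was in the library of that age that stood apart, and without both such libraries the change was -0.06 (adjusted p 0.448). Markers of the other cells that make these 2 transcripts did not stay equally level. Of 6 fibroblast genes, 4 fell from 3 to 28 months, Col3a1, Col1a2 and Col1a1 among them (log2 fold changes -1.27, -0.78 and -0.65), where 12.0% of all genes fell, and their summed level ran from 39.6 to 140 CPM (median 100) at 3 months and from 37.6 to 127 CPM (median 75.4) at 28 months. Of 6 pericyte genes none passed by edgeR (0 of 6 at an unadjusted p under 0.05), with a summed level of 114 to 163 CPM at 3 months and 107 to 205 CPM at 28 months. How much of Pdgfra and Cspg4 came from those cells was not tested.

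Gpr17 (ENSMUSG00000052229) lies on chromosome 18, from base 31942997 to 31949636 on the minus strand of GRCm38, and its 2 exon blocks span 5195 bases. At 3 months its lowest, median and highest levels were 56.3, 65.2 and 84.0 CPM. At 9 months they were 43.1, 48.4 and 57.2 CPM, so that 15 of 16 mice were already below every mouse of 3 months. At 15 months they were 35.8, 42.2 and 54.9 CPM, and from this age on no mouse reached the range of the youngest. At 24 months they were 13.7, 31.1 and 38.9 CPM, and at 28 months 8.04, 20.4 and 35.3 CPM. The highest of the 18 oldest mice thus had less Gpr17 than the lowest of the 15 youngest, and each median was below the one before.

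Against 3 months the log2 fold change of Gpr17 was -0.43 ± 0.10 at 9 months (adjusted p 0.0305), -0.60 ± 0.10 at 15 months (7.2e-05), -1.11 ± 0.10 at 24 months (2.8e-14) and -1.62 ± 0.10 at 28 months (6.1e-23), all from edgeR. It stood 14th among the 18711 genes ordered from the strongest fall, and was the third lowest among the 15007 genes that averaged 1 CPM or more. Between neighbouring ages, the fall was not past the threshold from 9 to 15 months (-0.17 ± 0.10, unadjusted p 0.0866, adjusted p 1.00). It was past it from 15 to 24 months (-0.51 ± 0.10, adjusted p 0.00182) and from 24 to 28 months (-0.51 ± 0.10, adjusted p 0.00196). In those last 2 steps the ages overlapped in part: 13 of 17 mice of 24 months were below the lowest mouse of 15 months, and 2 of 18 mice of 28 months were below the lowest of 24 months. That lowest mouse of 24 months, at 13.7 CPM, was the library that stood apart. The next lowest of 24 months had 20.9 CPM, above the 28-month median of 20.4 CPM.

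The fall to 28 months was found in each prep fitted alone, at -1.59 ± 0.13, -1.40 ± 0.19 and -1.88 ± 0.19 (adjusted p 5.8e-09, 1.1e-04 and 2.6e-06). The early and late single steps were not past the threshold in any prep alone. From 3 to 9 months the 3 preps gave -0.45, -0.43 and -0.41, and from 24 to 28 months they gave -0.44, -0.20 and -0.87. The fall from 3 to 15 months did not pass in any prep alone either, at -0.61, -0.52 and -0.69 (edgeR, adjusted p 0.0719, 0.837 and 0.998). Without the 2 libraries that stood apart the fall to 28 months was -1.57 (adjusted p 1.9e-27). Leaving out any 1 library kept it between -1.68 and -1.57, but the call at 9 months was lost without any of 5 libraries, 4 of them of 9 months and 1 of 3 months (adjusted p up to 0.0591).

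The spread between mice, relative to the mean, was larger at the last 2 ages. The coefficient of variation of Gpr17 was 10.1% at 3 months, 8.37% at 9 months and 12.2% at 15 months, then 22.6% at 24 months and 30.0% at 28 months, or 17.6% and 25.4% without the 2 libraries that stood apart. The lowest mouse at each of the last 2 ages was the library that stood apart, with 258 counts at 24 months and 70 counts at 28 months. The next lowest mouse of 28 months had 12.4 CPM.

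A score of 11 clock genes, whose transcripts follow the time of day, also differed in mean between ages (it is the mean over genes of the level in SD units across the 82 brains, with genes of the opposite phase reversed in sign), with a mean of -0.13 ± 0.13 (SD, n = 15) at 3 months, -0.13 ± 0.29 (n = 17) at 24 months and 0.44 ± 0.57 (n = 18) at 28 months. With that score as a covariate the change of Gpr17 was -1.50 ± 0.11 from 3 to 28 months (adjusted p 9.6e-19) and -0.39 ± 0.11 from 24 to 28 months (adjusted p 0.0762). The hours at which the brains were taken are not given in the sources used here, and their part in the last step was not tested beyond that fit. Fitted on those 2 ages alone, the last step was -0.51 with an adjusted p of 0.221.

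On the opposite strand, Lims2, which encodes a LIM domain protein of cell adhesions, shares 188 bases of exon with Gpr17, 3.62% of its exon length. The strand setting of the read counting is not given in the sources used here, so reads there could be assigned to either gene or left out. Lims2 was at 10.6 ± 1.58 CPM (SD) at 3 months and 8.84 ± 1.24 CPM at 28 months, a log2 fold change of -0.25 ± 0.06 (adjusted p 0.00172). Gpr17 went from 66.4 ± 6.72 to 21.5 ± 6.44 CPM, and the part of the shared bases in its change was not tested. None of the other genes whose span overlaps one of the 9 was tested, and the highest count of any of them in a brain library was 28.

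The plot of changes against 3 months separates 3 courses, and the other committed-stage genes did not share that of Gpr17. Bmp4, a secreted ligand of the bone morphogenetic protein family, had the lowest mean of the 9 per base of exon at every age. It lies on chromosome 14, from 46383520 to 46390669 on the minus strand of GRCm38. Its lowest, median and highest levels were 1.34, 2.46 and 5.13 CPM at 3 months, 1.08, 1.95 and 3.02 CPM at 9 months, and 0.924, 1.83 and 4.71 CPM at 28 months. At 15 and 24 months the medians were 1.49 and 1.58 CPM. The ages overlapped widely, yet 16 of 18 mice of 28 months were below the median of the youngest.

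The change of Bmp4 was -0.46 ± 0.17 at 9 months (adjusted p 0.367), -0.64 ± 0.17 at 15 months (0.0389), -0.71 ± 0.17 at 24 months (0.00179) and -0.52 ± 0.16 at 28 months (0.0120). None of its steps between neighbouring ages after 9 months passed, and the last, from 24 to 28 months, was 0.19 ± 0.16 (adjusted p 0.690). The 28-month change was past the threshold in the first prep alone (-0.64, adjusted p 0.0125) and not in the second (-0.65, 0.339) or the third (-0.28, 0.605). The highest Bmp4 of 28 months, 4.71 CPM, was in the library that stood apart, and without the 2 such libraries the change was -0.61 (adjusted p 0.00114). The call at 15 months was lost without any of 16 libraries, with adjusted p up to 0.144.

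Neu4 (chromosome 1, 94020451 to 94028334, plus strand) encodes a sialidase, an enzyme that removes sialic acid from glycoproteins and glycolipids. It ran from 11.0 through 12.0 to 16.7 CPM (lowest, median and highest) at 3 months and from 10.8 through 12.8 to 14.3 CPM at 9 months, a change of 0.02 ± 0.06 (adjusted p 1.00). It was lower afterwards, with medians of 11.1, 10.6 and 9.10 CPM at 15, 24 and 28 months. At 28 months the lowest mouse had 8.09 and the highest 11.5 CPM, and 14 of 18 mice were below the lowest mouse of 3 months. The change against 3 months was -0.16 ± 0.06 at 15 months (adjusted p 0.247), -0.26 ± 0.05 at 24 months (3.8e-04) and -0.39 ± 0.05 at 28 months (3.1e-08). The preps fitted alone gave -0.43, -0.31 and -0.42, the second of them not past the threshold (adjusted p 0.194).

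Itpr2 (chromosome 6, 146108299 to 146502223, minus strand) encodes a receptor for inositol trisphosphate that releases calcium from the endoplasmic reticulum. It was at 20.4, 24.2 and 30.1 CPM (lowest, median and highest) at 3 months and at 24.3, 26.1 and 42.6 CPM at 28 months. None of the 18 oldest mice was below the median of the youngest, and 1 was above their highest. Its change of 0.13 ± 0.05 passed with an adjusted p of 0.0319, was 0.09 without 28 months replicate 15, the mouse with 42.6 CPM (adjusted p 0.0795), and passed in no prep alone. Without both libraries that stood apart it was 0.09 and passed (adjusted p 0.0454). The call was lost without any of 5 libraries in all, 2 of 28 months and 3 of 3 months.

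Enpp6 (chromosome 8, 46986887 to 47096762, plus strand), a choline phosphodiesterase of newly forming oligodendrocytes, was the most variable of the 9 at 3 months with all libraries in. Its lowest, median and highest levels were 3.43, 6.92 and 21.1 CPM at 3 months and 2.30, 7.25 and 14.7 CPM at 28 months. The lowest of 28 months was the library that stood apart, with 20 counts, and without both such libraries the change to 28 months was -0.03 (adjusted p 0.917). The coefficient of variation at 3 months was 51.3% with replicate 9 in, the mouse with 21.1 CPM, and was not computed without it. The change to 28 months with all libraries in was -0.08 ± 0.16 (adjusted p 0.753), and the largest against 3 months, at 15 months, was -0.33 ± 0.16 (unadjusted p 0.0498, adjusted p 0.644).

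The 250 bases before and 50 bases after the start site of 3 of these genes are shown to set the promoters of Neu4 and Bmp4, which fell, beside that of Pdgfra, which did not pass. They are RefSeq sequences of GRCm38.p6, read in the direction of transcription: chr1:94020243-94020542 on the plus strand for Neu4, chr14:46390620-46390919 on the minus strand for Bmp4 and chr5:75152001-75152300 on the plus strand for Pdgfra. Capitals mark matches to CANNTG, the E-box bound by basic helix-loop-helix factors, the family of Olig1 and Olig2.
Neu4: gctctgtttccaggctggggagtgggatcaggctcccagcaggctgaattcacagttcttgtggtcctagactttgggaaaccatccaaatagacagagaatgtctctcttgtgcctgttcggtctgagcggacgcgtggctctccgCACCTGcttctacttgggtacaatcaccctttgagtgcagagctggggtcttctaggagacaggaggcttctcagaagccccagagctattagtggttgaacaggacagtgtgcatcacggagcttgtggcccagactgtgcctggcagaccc
Bmp4: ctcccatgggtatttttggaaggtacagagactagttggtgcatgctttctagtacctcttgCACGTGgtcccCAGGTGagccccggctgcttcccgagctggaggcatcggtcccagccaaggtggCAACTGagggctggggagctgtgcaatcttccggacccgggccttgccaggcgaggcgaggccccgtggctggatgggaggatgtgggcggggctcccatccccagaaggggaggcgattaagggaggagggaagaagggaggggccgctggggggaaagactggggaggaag
Pdgfra: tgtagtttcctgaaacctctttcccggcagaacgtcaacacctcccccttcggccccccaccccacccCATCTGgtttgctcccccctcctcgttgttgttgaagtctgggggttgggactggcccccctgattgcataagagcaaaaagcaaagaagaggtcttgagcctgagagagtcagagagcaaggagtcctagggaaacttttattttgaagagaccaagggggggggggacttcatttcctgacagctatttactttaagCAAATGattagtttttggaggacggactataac

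Of all 32851 RefSeq promoter windows of this length, 72.3% held a CANNTG. Neu4 had 1 such match, Bmp4 had 3 and Pdgfra had 2, and in the windows of the other members looked at Itpr2 had 1 while Enpp6, Cspg4 and Olig2 had none. Gpr17 and Olig1 are not among the 7 windows used here. The subtypes CAGCTG (16.3% of all windows), CAGATG or its reverse complement CATCTG (17.2%) and CATATG (3.91%), each of them also a CANNTG, were searched on both strands. The single match was the CATCTG of Pdgfra. ACAAAG, a core of the sites of SOX factors (18.7% of windows on either strand), had no match in the 7 windows. Matches of letters are a description and not evidence of binding, and no match says only that the letters are not in the window.

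Olig1 and Olig2 are neighbouring genes on chromosome 16, at 91269772 to 91271933 and 91225457 to 91228677 on the plus strand of GRCm38. Olig1 was at 79.5, 97.1 and 158 CPM (lowest, median and highest) at 3 months and at 52.5, 94.3 and 146 CPM at 28 months. Olig2 was at 19.4, 25.6 and 38.7 CPM at 3 months and at 9.31, 23.1 and 33.1 CPM at 28 months. Both widened at the oldest age, with coefficients of variation of 24.1% and 24.2%, and 28 months replicate 7 was the lowest mouse for both. Their changes, -0.07 ± 0.09 for each (adjusted p 0.591 and 0.604), did not pass, nor did any other comparison of ages.

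One young mouse was high in many of these genes. Of the 15 brains of 3 months, replicate 9 had the highest Gpr17 (84.0 CPM), Neu4 (16.7 CPM), Enpp6 (21.1 CPM), Olig1 (158 CPM) and Olig2 (38.7 CPM), 5 of the 9 genes. It also had the highest score of 12 mature oligodendrocyte genes among the 82 brains, 3.536 SD units. Without it the change to 28 months was -0.36 ± 0.05 for Neu4 (adjusted p 1.5e-07), 0.10 ± 0.15 for Enpp6 (0.654), -0.01 ± 0.09 for Olig1 (0.939) and -0.02 ± 0.09 for Olig2 (0.920).

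Per kilobase of exon, the scale on which genes can be set beside each other, Olig1 was the most abundant at 3 months with 46.5 ± 8.98 CPM per kilobase (SD, n = 15). Gpr17 followed with 12.8 ± 1.29, ahead of Olig2 (10.1 ± 1.79) and Pdgfra (6.05 ± 0.364). Neu4 and Cspg4 (2.68 and 2.47 CPM per kilobase) differed by less than the SD of either, and so did Enpp6 and Bmp4 (1.25 and 1.19). By 28 months Gpr17, at 4.13 ± 1.24 CPM per kilobase, was below Olig2 (9.56) and Pdgfra (5.72 ± 0.927), so that it had gone below both in the order. The last places were the same at both ages: Itpr2 (1.66 and 1.83), Enpp6 (1.25 and 1.18) and Bmp4 (1.19 and 0.847 CPM per kilobase). Exon lengths are those of GENCODE M21 and can differ from the annotation the counts were made with.

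Among the earlier comparisons, 1 of the 9 genes (Gpr17) fell from 3 to 9 months, when 0.315% of all genes passed in either direction and 0.128% downward. From 3 to 15 months 2 fell (Gpr17 and Bmp4), against 0.871% of all genes in either direction and 0.347% downward. From 3 to 24 months 3 fell (Gpr17, Bmp4 and Neu4), against 10.1% and 3.86%, and the test of all ages together called the same 3 genes and 20.6% of all genes. Between 9 and 15 months edgeR called 0 of the 9 and 0% of all genes, though 532 genes and, among the 9, Neu4 had an unadjusted p under 0.05; DESeq2 and limma voom also called 0 of the 9. Gpr17 was the member called from 15 to 24 months (0.732% of all genes, 0.0534% downward, or 10 genes) and from 24 to 28 months (1.09%, 0.561% downward). Every comparison with 3 months shares the same 15 young brains.

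Ratios of 2 genes within a library need no scaling between libraries, and they show which members parted from each other. The mean log2 ratio of Gpr17 to Pdgfra counts was 0.13 ± 0.16 (SD, n = 15) at 3 months and -1.46 ± 0.38 (n = 18) at 28 months. All 18 old mice were below every young mouse, a change of -1.59 with a permutation p of 1e-05, the smallest that 100000 permutations within prep can give (two-sided, adjusted p 4.5e-05 over 36 pairs). The ratio of Gpr17 to Neu4, both genes of the committed stage, went from 2.42 ± 0.09 to 1.12 ± 0.45, again with all 18 below (change -1.30, permutation p 1e-05, adjusted 4.5e-05). The ratio of Gpr17 to each of the other 8 genes fell, by 1.18 (to Bmp4) to 1.83 (to Itpr2) on the log2 scale.

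Of the 36 pairs, 17 had an adjusted p under 0.05: the 8 with Gpr17, 6 with Neu4 (the pair of these 2 counted in both), 3 with Bmp4 (one of them shared with Gpr17), and the ratios of Itpr2 to Pdgfra and to Cspg4. The ratios come from the same libraries as the changes of the single genes and are not separate support for them. How many ratios between all genes would pass was not computed. Among the 6 pairs of Pdgfra, Cspg4, Olig1 and Olig2 none passed, the changes lay between -0.07 and 0.07 and the smallest unadjusted permutation p was 0.632. The SD of the Pdgfra to Cspg4 ratio was 0.13 at 3 months and 0.47 at 28 months, or 0.20 at 28 months without replicate 15. Without the 2 libraries that stood apart 21 pairs passed, and the 4 pairs that were stronger then were Bmp4 with Enpp6, Olig1 and Pdgfra, and Enpp6 with Neu4.

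**Figure D2:**
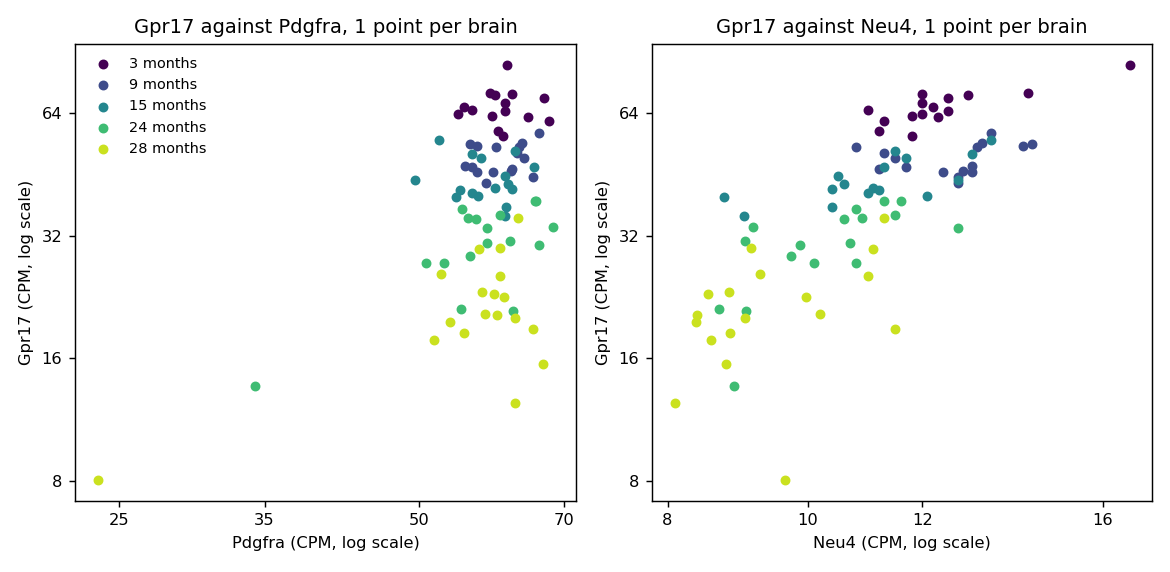
Gpr17 against Pdgfra (left) and against Neu4 (right) in each of 82 brains, in CPM on log axes, with 1 point per mouse coloured by age. Gpr17 falls with age at an almost fixed Pdgfra, apart from the 2 libraries at 34.2 and 23.8 CPM of Pdgfra, and falls together with Neu4 but further.

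Within an age, mice with more Gpr17 also had more Neu4. After the means of age and prep were removed, Pearson's r over 82 brains was 0.48 (permutation within age, p 3.0e-05, adjusted p 2.7e-04 over 36 pairs), and Spearman's rho was 0.53 (p 1e-05, the smallest possible, adjusted 3.6e-04). Without the 2 libraries farthest from the median of Gpr17, which were the 2 that stood apart, r was 0.58. In contrast, the r of 0.59 between Gpr17 and Pdgfra (permutation p 8.2e-04, adjusted 0.00492, rho 0.22 with p 0.0613) was 0.11 without those 2 libraries, so it rested on them. For Gpr17 with Enpp6, r went from 0.32 (permutation p 0.00802, adjusted 0.0321, rho 0.10 with p 0.374) to 0.09 without them.

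Olig1 and Olig2 had the highest r with all libraries in, 0.65 (permutation p 1e-05, adjusted 1.2e-04), rho 0.50 (p 3.0e-05, adjusted 5.4e-04) and r 0.52 without the 2 libraries farthest from the median of Olig1. Without the 2 libraries that stood apart r was 0.77, against 0.59 for Gpr17 with Neu4, whose rho of 0.53 was the higher. Neu4 went with Olig2 (r 0.49, permutation p 1e-05, adjusted 1.2e-04, rho 0.45 with p 1.1e-04, adjusted 0.00108, r 0.42 without the 2 farthest libraries) and with Olig1 (r 0.42, p 7.0e-05, adjusted 5.0e-04, rho 0.34 with p 0.00239, adjusted 0.0143, r 0.33 without the 2 farthest). Itpr2 went with Cspg4 (r 0.52, permutation p 1e-05, adjusted 1.2e-04, rho 0.40 with p 1.2e-04, adjusted 0.00108, r 0.37 without the 2 farthest). In all, 12 of 36 pairs passed by r and 6 by rho, 9 passed by r without the 2 libraries that stood apart, and 7 passed both with and without them. The share of passing pairs among all genes was not computed, so these counts have no background to stand beside. Pdgfra and Cspg4, both marks of the dividing precursor, had an r near 0 (permutation p 0.982), a rho of 0.18 (p 0.114) and an r of 0.16 without the 2 farthest libraries. Without 28 months replicate 15 alone their r was 0.36 and passed (permutation, adjusted p 0.0132).

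Over all 82 brains, with prep means removed but age left in, the genes outside the 9 most like Gpr17 were 9630013A20Rik (Pearson r 0.88, Spearman rho 0.90), Kctd21 (0.84, 0.77), Ncan (0.84, 0.84), Lrp4 (0.83, 0.75) and Tsga10 (0.80, 0.69). Neu4 came 11th with r 0.77, while Pdgfra, at 0.44, went down to 0.13 without the 2 libraries that stood apart. These brains share their ages, so any gene that fell steadily has a high r, and the values are a description. 9630013A20Rik is a long non-coding RNA known from newly formed oligodendrocytes. It fell from 2.49 ± 1.25 CPM (SD, n = 15) to 0.291 ± 0.185 CPM (n = 18), a log2 fold change of -2.99 ± 0.19 (adjusted p 1.5e-22). Ncan, the chondroitin sulphate proteoglycan neurocan of the brain's matrix, fell from 240 ± 18.3 to 171 ± 16.9 CPM (-0.50 ± 0.04, adjusted p 7.0e-16).

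With the age means removed as well, the 5 nearest genes were Dock8, Ick, Fyco1, Pxdn and Cdc7, with r from 0.71 to 0.78. Their r was 0.43 to 0.61 without the 2 libraries that stood apart, so the order leaned on those libraries. On this scale Neu4, at 0.48 with them and 0.58 without, ranked 3181st among the genes tested with all libraries in.

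**Figure D3:**
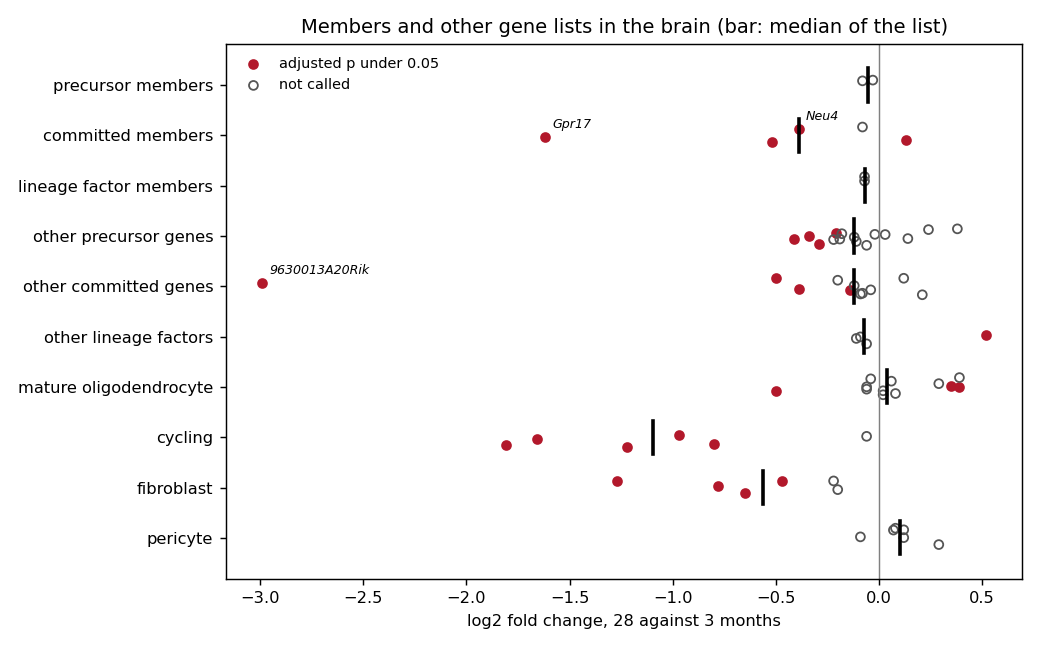
Log2 fold change from 3 to 28 months in the brain for the 9 genes, by stage, and for lists of other genes of the lineage and of other cells, with 1 point per gene, filled where the adjusted p was under 0.05, and a bar at the median of each list. Gpr17 (-1.62) and the long non-coding RNA 9630013A20Rik (-2.99) lie far below the other committed-stage genes, whose list has a median of -0.12, and the mature list has a median of 0.04.

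The plot by list sets the 9 genes among others of the lineage. Of 11 further committed-stage genes, 4 fell and none rose, with a median of -0.12 against 0.01 over all genes. Kif19a, a kinesin, fell by 0.50 ± 0.10 on the log2 scale (adjusted p 1.1e-04), Zfp488, a transcription factor of the lineage, by 0.39 ± 0.10 (0.00162), and Fyn, a Src-family kinase that acts in myelin formation, by 0.14 ± 0.05 (0.0167). The other was 9630013A20Rik, which already fell at 9 months (-1.24 ± 0.18, adjusted p 2.6e-06), the one gene of this list called at that age. Bcas1 and Myrf, a marker and a transcription factor of differentiating oligodendrocytes, were at 0.21 ± 0.13 (adjusted p 0.237) and 0.12 ± 0.11 (0.433).

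Of 15 further precursor genes, 4 fell and none rose (median -0.12), Emid1 (-0.41 ± 0.08, adjusted p 2.2e-05), Susd5 (-0.34 ± 0.07, 3.1e-04) and Tmem100 (-0.29 ± 0.07, 0.00156) among them. None of the 15 passed at 9, 15 or 24 months against 3 months by edgeR (0, 1 and 1 of them at an unadjusted p under 0.05). Their summed level ran from 421 to 525 CPM at 3 months and from 386 to 517 CPM at 28 months. These shares of fallers, 4 of 11 and 4 of 15, stand beside the 12.0% of all genes that fell.

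Of 12 mature oligodendrocyte genes, Mobp and Aspa rose (0.39 ± 0.14 and 0.35 ± 0.13, adjusted p 0.0236 and 0.0366) and Ugt8a, an enzyme that makes the myelin lipid galactosylceramide, fell (-0.50 ± 0.14, adjusted p 0.00601). The 9 others did not pass, Mbp (0.29 ± 0.13, adjusted p 0.0754) and Mog (0.06 ± 0.13, 0.743) among them, and of all genes 16.3% rose and 12.0% fell. The summed level of the 12 genes differed widely between mice of one age, from 2370 to 11800 CPM at 3 months and from 3650 to 15000 CPM at 28 months. With the mature score as a covariate the change of Gpr17 remained -1.62 ± 0.10. Of 4 further lineage factors 1 passed, Nkx6-2, which rose by 0.52 ± 0.17 (adjusted p 0.0145), and Sox10 was at -0.09 ± 0.11 (0.540). Of all genes 28.3% passed in this comparison.

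Genes of the signals that act on these cells, and relatives of the members, are read beside the 28.3% of all genes that passed in either direction. Of 4 ligands of platelet-derived growth factor and the second receptor Pdgfrb, 1 passed: Pdgfc, a ligand of Pdgfra, fell from 5.95 ± 0.999 to 4.80 ± 1.09 CPM (-0.30 ± 0.09, adjusted p 0.00588), while Pdgfa, the main mitogen of precursors, was at 0.04 ± 0.06 (0.589). Of 16 genes of the bone morphogenetic protein pathway beside Bmp4, 1 passed: the receptor Acvr1 fell (-0.22 ± 0.08, adjusted p 0.0329). The target genes Id1, Id2, Id3 and Id4 lay between -0.13 and 0.15 and none passed. Of 9 relatives of the members, Itpr3 and the lysosomal sialidase Neu1 rose (0.48 ± 0.12 and 0.14 ± 0.04, adjusted p 0.00141 and 0.0104).

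Genes of dividing cells fell, 5 of 6 by 28 months, with a median of -1.09. Of the 6, 1 fell by 9 months, and 5 fell by 15 and by 24 months, where the medians were -1.13 and -1.14. Of all genes, 0.128% fell by 9 months, 0.347% by 15, 3.86% by 24 and 12.0% by 28 months. The 6 genes were scarce, with a summed level of 3.17 to 11.0 CPM at 3 months and 1.53 to 6.42 CPM at 28 months. Of 4 genes of newborn neurons, another product of dividing cells in the adult brain, 3 fell by 28 months and 3 by 9 months. Which of these dividing cells were oligodendrocyte precursors cannot be told apart in bulk RNA.

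In the liver, 4 of the 9 genes were at or near the detection limit and were not tested. Neu4 had no read in 83 livers, where 3 reads correspond to 0.515 RPM in the shallowest library and 0.0522 in the deepest. Gpr17 had at most 3 reads in a liver and Olig2 at most 1. Cspg4 had at most 11, with means of 0.0760 to 0.108 RPM at the 5 ages. The other 5 genes were measured there. The libraries of each tissue were scaled separately, so levels are compared between ages and not between tissues. Itpr2, at 32.3 ± 4.26 CPM (SD, n = 16) at 3 months and 33.3 ± 6.53 CPM (n = 18) at 28 months, did not pass (0.05 ± 0.07, adjusted p 0.611), and neither did Olig1 (-0.17 ± 0.21, 0.489).

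**Figure D4:**
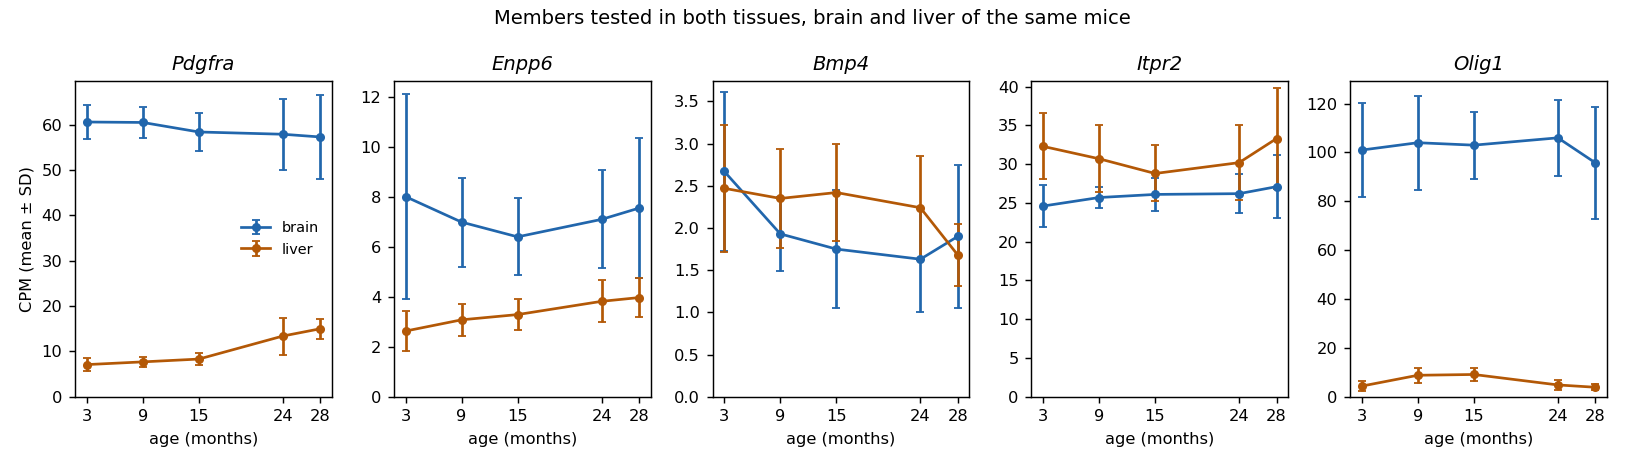
Mean level (CPM, with SD bars, linear axes from 0) at each age in brain and liver for the 5 of the 9 genes that could be tested in both tissues. Pdgfra climbs in the liver from 7.10 to 15.0 CPM while it stays near 60 CPM in the brain, Enpp6 climbs in the liver, Bmp4 is lowest at 28 months in the liver, and Olig1 peaks there at 9 and 15 months.

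The plot of both tissues shows Pdgfra with the widest difference. In the liver, where fibroblasts and stellate cells make it, the lowest, median and highest levels were 4.85, 6.83 and 9.08 CPM at 3 months and 11.0, 15.4 and 20.6 CPM at 28 months, with no overlap. The log2 fold change was 1.08 ± 0.10 (adjusted p 2.2e-15, edgeR over 15579 genes). Enpp6 rose there by 0.58 ± 0.11 (adjusted p 1.8e-06), from 2.63 ± 0.811 to 3.97 ± 0.796 CPM, and Bmp4 fell, from 2.47 ± 0.751 to 1.68 ± 0.365 CPM (-0.55 ± 0.14, adjusted p 3.4e-04). Thus 3 of 5 tested members passed in the liver, where 61.9% of all genes did.

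The liver change minus the brain change, tested as an interaction over 14035 genes, was 1.19 ± 0.12 for Pdgfra (adjusted p 9.7e-17) and 0.70 ± 0.19 for Enpp6 (adjusted p 0.00163). The interaction passed for 49.2% of all genes. Bmp4 was near 0 with an SE of 0.25 (adjusted p 0.994), having fallen in both tissues, and Itpr2 (-0.05 ± 0.09, 0.689) and Olig1 (-0.07 ± 0.22, 0.809) did not pass. For Gpr17 and Neu4, which fell in the brain, the liver gave no value to set beside it.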

How the data were processed

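The files are raw read counts per gene that the authors deposited, 1 table per tissue, for polyA RNA sequenced from brain and liver of mice of 5 ages in 3 library preps. Per the submitters' processing notes the tools were cutadapt 2.8, HISAT2 2.1.0, SAMtools 1.9 and featureCounts of Subread 2.0.1, with the genome GRCm38.p6 (mm10). The strand setting and the annotation release are not given in the sources used here. Of 55471 ids, 55144 had a symbol.

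From the counts, genes were filtered with filterByExpr by age and scaled by the trimmed mean of M values, and tested in R 4.3.3 with edgeR 4.0.16 (quasi-likelihood, age and prep as terms, all ages in 1 fit, Benjamini-Hochberg adjustment, called under 0.05). Each SE was taken from the log2 fold change and its F statistic. Log2 CPM used a prior count of 2, and ratios added 0.5 to both counts. Alternatives used DESeq2 1.42.0, limma 3.58.1 and other filters, scalings, covariates and left-out libraries. Fits that left out each library in turn kept the filter, scaling and negative binomial dispersions. The quasi-likelihood dispersions were estimated anew in each. Ratios were tested with 100000 permutations of age within prep, and correlations with 100000 permutations within age. Limits from 3 counts cover counting error only.

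The 9 genes and the lists were chosen with earlier results of these data known. From each list up to 3 called genes per direction were named, provided that they averaged 1 CPM or more and moved alike in all preps, plus the 5 genes nearest to Gpr17 in each likeness ranking. Other list genes named with values were chosen after their values were seen. The labels do not say beyond the mouse number that libraries are separate animals, so p-values measure the spread between these libraries. The pair of brain libraries most alike still differed by 4.49 times the sampling noise, so none was counted as a repeat. The replicate numbers did not pair brain libraries across ages (median correlation of deviations 0.01 over 157 pairs with the same number). Brain and liver of a mouse had a correlation of -0.01.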

Additional observations from a re-analysis of the deposited data

Results flagged for a closer look

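Pdgfra and Enpp6 changed differently in the 2 tissues between 3 and 28 months. Both passed edgeR's interaction test, as did 49.2% of the 14035 genes in it. The liver change exceeded the brain change by 1.19 on the log2 scale for Pdgfra and by 0.70 for Enpp6. With the mouse as a block the values were 1.19 (adjusted p 3.0e-16) and 0.61 (adjusted p 0.00879). Age groups held more than 10 libraries, so single libraries were not tested as outliers.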

How the results depend on the processing

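The falls of Gpr17 from 3 to 15, 24 and 28 months and of Neu4 and Bmp4 to 28 months passed in every fit that left out 1 library. Leaving out 1 library moved the 28-month change between -1.68 and -1.57 for Gpr17, -0.61 and -0.44 for Bmp4, -0.41 and -0.36 for Neu4, and 0.09 and 0.15 for Itpr2. In preps fitted alone, which hold fewer mice, Bmp4 was -0.65 (second prep) and -0.28 (the third), Neu4 was -0.31 (second), and Itpr2 was 0.12, 0.19 and 0.10, none past the threshold. The call of Itpr2 was also lost with the clock score as a covariate (0.12), with no filter on low counts (0.12), on the 2 ages alone (0.14) and without 28 months replicate 15 (0.09); apart from the left-out library, the cause was not tested.

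The number of the 9 genes called went from 2 to 1 at 15 months with a mean of at least 1 CPM, no filter, no prep term, in the first prep alone or without any of 16 libraries, and to 0 in the other preps, while limma voom called 3. In the first prep alone the gene still called was Bmp4 and not Gpr17 (edgeR, adjusted p 0.00412 and 0.0719). At 9 months it went from 1 to 0 with no filter, in each prep, and without any of 5 libraries. At 24 months it went from 3 to 2 in the first prep and 1 in the second and the third, and to 4 with limma voom and without the 2 libraries that stood apart. At 28 months it went from 4 to 3, 1 and 2 in the preps, and to 3 with the clock score, no filter, the 2 ages alone or without 28 months replicate 15. The preps alone called 1987 of 18658, 368 of 18769 and 1205 of 18942 genes at 28 months, against 28.3% of all genes in the main fit. For the other alternative fits named here the share of all genes was not counted. Over all ages it went from 3 to 1 and 2 in the second and the third prep, and to 4 with limma voom and the mature score. Between 15 and 24 months it went from 1 to 0 in each prep. Between 24 and 28 months it went from 1 to 0 in each prep, with the clock score and on the 2 ages alone. Leaving out 1 library gave 1 to 2 calls at 15 months and 0 to 1 at 9 months.

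Within ages the r of Itpr2 with Pdgfra went from -0.09 to 0.54 without 28 months replicate 15 and to 0.33 without both libraries that stood apart, a setting chosen after seeing the data. That of Pdgfra with Cspg4 became 0.36 without the first, past the threshold (adjusted p 0.0132). With a replicate block the change of Gpr17 was -1.62 (adjusted p 1.1e-20), 4 of the 9 genes were called and no call changed, but the numbers did not pair the libraries. Of the alternative values of the main results, 258 were on the same side of the threshold or, for counts, within 1.5 times, 15 lost the call and 25 counts moved further. For single comparisons and pairs these were 1256 on the same side, 38 that lost and 19 that gained the call, and 3 that turned. Values that did not pass could change sign: at 28 months Enpp6 was 0.22 in the first prep, Pdgfra 0.01 in the second and Olig1 0.07 in the third. The lowest counts in a brain library were 20 reads for Enpp6 and 26 for Bmp4.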

Other observations

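In the liver Olig1, known as a transcription factor of the oligodendrocyte lineage, had its lowest, median and highest levels at 0.713, 4.25 and 8.30 CPM at 3 months, 2.11, 8.40 and 14.7 CPM at 9 months, and 4.29, 8.67 and 13.6 CPM at 15 months. The medians were 4.92 CPM at 24 months and 3.66 CPM at 28 months, and Olig2 had at most 1 read in a liver. The step up to 9 and 15 months was not tested.

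Of 5 microglial genes in the brain, 4 rose from 3 to 28 months, Cx3cr1 by 0.34 ± 0.05 on the log2 scale among them (adjusted p 6.7e-07, edgeR). Of all genes tested in this comparison 16.3% rose and 12.0% fell. Of 5 astrocyte genes 2 rose and 2 fell, Aldoc at 0.33 ± 0.06 (adjusted p 2.0e-05) and the water channel Aqp4 at -0.46 ± 0.12 (0.00299) among them.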
